A study of Mus musculus with 2 samples.

Results

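The cholesterol genes described here are 29 genes of sterol synthesis, its control by SREBP and sterol transport, listed by name from the pathway. All 29 symbols matched 1 gene each among the 43346 Ensembl genes of the tables. They comprise 8 genes of the mevalonate and isoprenoid steps, 11 of the squalene and sterol steps, 5 of SREBP control, and 5 of sterol trafficking, esterification and efflux. RNA described as polyadenylated was sequenced from G1E-ER4, an immortalized mouse erythroid cell line derived from cells that lack Gata1. The line carries a GATA1 protein that estradiol switches on through an estrogen receptor part, and the labels state that Gata1 was restored and that estradiol (E2) induced differentiation. The labels give a male, postnatal source with an age of 0 day, and neither a dose nor a duration of estradiol. The 2 libraries are labelled biological replicates 1 and 2 of this 1 condition and cite the same biosample record. No condition could therefore be compared, no test between groups exists, and the spread between the libraries may be technical.

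Cells make cholesterol from acetyl-CoA through mevalonate, farnesyl diphosphate, squalene and lanosterol. The membrane-bound factors SREBP-1 and SREBP-2 switch on these enzymes after the escort protein SCAP carries them to the Golgi, and INSIG proteins hold SCAP back in the endoplasmic reticulum when sterols are plentiful. Insig1 and many of the enzymes are known as SREBP targets, and maturing red cells depend on cholesterol for their plasma membrane.

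Replicate 1 summed to 68901065 estimated counts over genes and replicate 2 to 51923117. All 8 erythroid markers reached 1 TPM in each library. TPM divides counts by transcript length and scales every library to the same total, so that levels of different genes can be set side by side within a library. Of 28 markers of other cell types 2 reached that level in both, namely Cd68 at 1.22 and 1.16 TPM and the megakaryocyte integrin gene Itga2b at 18.2 and 29.3 TPM. Alb, Cyp11a1, Adgre1 and Lyz2, markers of hepatocytes, steroidogenic cells and macrophages, had 0 counts in both libraries.

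Transcripts for most of the pathway were present, but levels ranged from 0 counts to 412 TPM. Of the 29 genes 24 (82.8%) reached 1 TPM in each library, against 39.0% of the 21474 protein-coding genes. The median over the 29 genes was 19.3 TPM, beside 20.5 TPM for the 8376 protein-coding genes that passed the same minimum (expressed genes below). Over the 24 members that passed it the median was 21.6 TPM. Among the 24 detected members 14 lay above the 20.5 TPM median of expressed genes. The genes with the highest levels encoded the regulators, Srebf1, Srebf2 and Scap, and not enzymes. Insig1 and Soat1 were at or near 0 counts, and Ggps1, Hsd17b7 and Abca1 stayed below 1 TPM in 1 library each. The summed level of the 29 genes was 1301 TPM in replicate 1 and 1303 TPM in replicate 2. Most of each sum came from Srebf1, Srebf2 and Scap, so it says little about the other members.

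**Figure D1:**
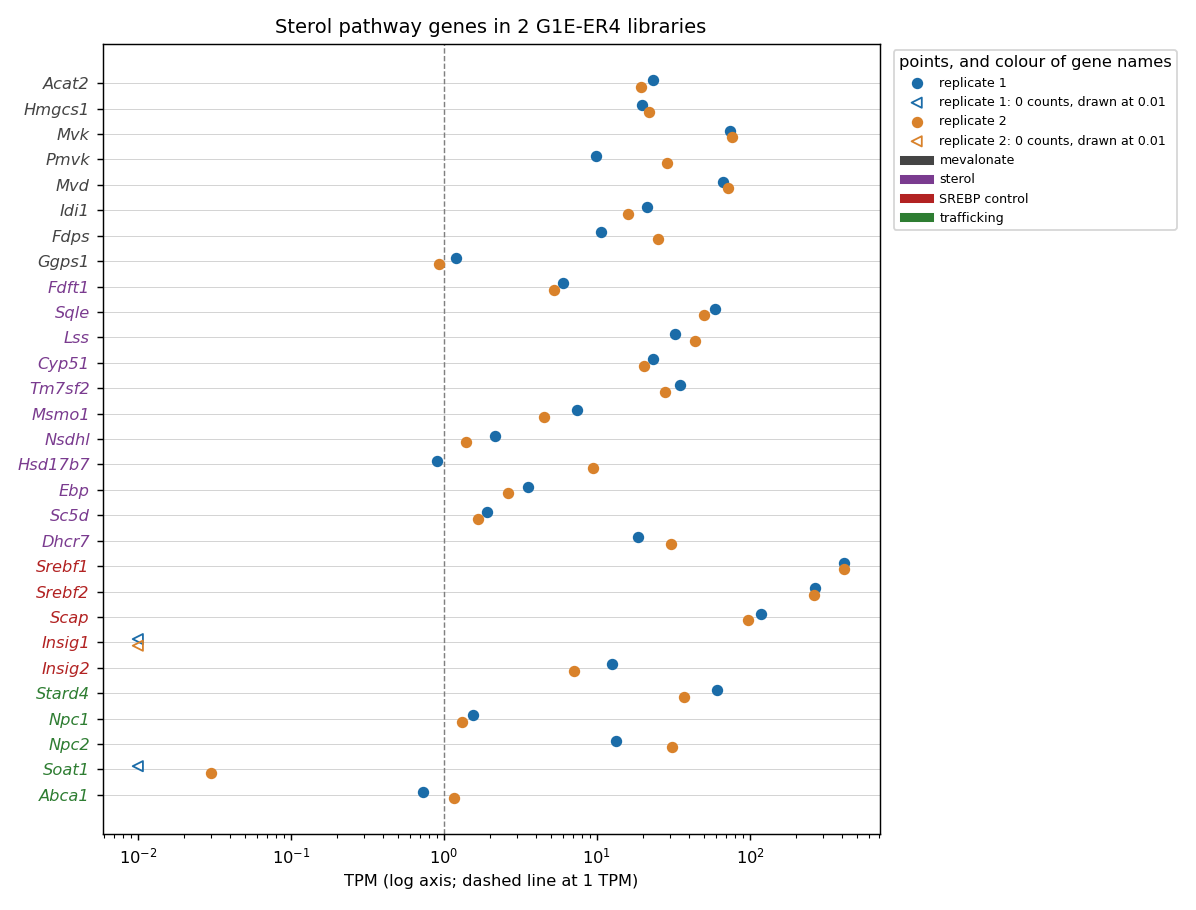
TPM of each of the 29 genes (log axis) in replicate 1 (blue) and replicate 2 (orange), in pathway order, with gene names coloured by role and 0 counts drawn as open triangles at 0.01. Srebf1 and Srebf2 lie at the right near 412 and 263 TPM on average, Insig1 at the left edge in both libraries, and most enzymes between 1 and 75 TPM.

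In the mevalonate steps, the mevalonate kinase gene Mvk and the decarboxylase gene Mvd stood above the rest. Acat2, which encodes the acetyl-CoA acetyltransferase that opens the pathway, had 23.3 and 19.4 TPM in replicates 1 and 2. Hmgcs1, the HMG-CoA synthase gene (chromosome 13, 119690379 to 119708260 in mm10, plus strand), had 19.8 and 21.9 TPM. The mevalonate kinase gene Mvk had 73.7 and 76.0 TPM and was 3.72 and 3.46 times above Hmgcs1 in the same libraries. Both values of Mvk lay above both of Hmgcs1, so this order exceeded the spread between libraries. That spread does not cover effects of length or base composition that both libraries share. Pmvk, the phosphomevalonate kinase gene, had 9.89 and 28.7 TPM, with replicate 2 the higher. The decarboxylase gene Mvd followed with 66.3 and 71.7 TPM, an SD of 3.80 TPM (n = 2). Mvk and Mvd were thus close, with Mvk higher in both libraries, whereas the gene for the step between them was lower and uneven. Idi1, encoding the isopentenyl diphosphate isomerase, had 21.2 and 16.0 TPM. The farnesyl diphosphate synthase gene Fdps had 10.6 and 25.2 TPM. At the branch toward geranylgeranyl diphosphate, Ggps1 had 1.20 and 0.93 TPM, from 160 and 93 counts. Fdps exceeded Ggps1 8.85 times in replicate 1 and 27.1 times in replicate 2, a ratio that moved with Fdps.

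Among the squalene and sterol steps, genes of the middle of the pathway were high and the genes of late C4 demethylation and desaturation were low. Fdft1, which encodes squalene synthase, stood at 5.99 and 5.24 TPM. Sqle, encoding the rate-limiting squalene epoxidase (chromosome 15, 59315077 to 59331192, plus strand), had 59.0 and 49.9 TPM. Sqle was 9.85 and 9.53 times above Fdft1, a ratio that was nearly the same in the 2 libraries. The lanosterol synthase gene Lss had 32.2 and 43.8 TPM, the lanosterol demethylase gene Cyp51 23.3 and 20.4 TPM, and the sterol reductase gene Tm7sf2 34.9 and 27.9 TPM. Cyp51 lay below the other two in both libraries, whereas Tm7sf2 lay above Lss in replicate 1 and below it in replicate 2. On coding transcripts the order turned, with Lss at 12.2 and 12.9 TPM below Cyp51 and Tm7sf2 in both libraries. The C4 demethylation genes were lower, with Msmo1 at 7.37 and 4.50 TPM and Nsdhl at 2.16 and 1.39 TPM. Hsd17b7, the ketoreductase gene of the same complex, had 0.90 and 9.36 TPM, again with replicate 2 the higher. Ebp, the sterol isomerase gene, had 3.54 and 2.62 TPM, and the desaturase gene Sc5d had 1.90 and 1.66 TPM. Sqle exceeded Sc5d 31.1 and 30.1 times, from 9400 and 5961 counts against 236 and 152. Dhcr7, encoding the 7-dehydrocholesterol reductase, returned to 18.6 and 30.4 TPM. The median over the 11 sterol genes was 5.94 TPM, beside 20.1 TPM over the 8 mevalonate genes.

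The regulators of the pathway included both the most abundant members and one without any count. Srebf1 (chromosome 11, 60199089 to 60222581, minus strand) stood at 413 and 411 TPM, above 96.1% of expressed genes. Srebf2, the gene of the factor best known for cholesterol synthesis (chromosome 15, 82147181 to 82205379, plus strand), had 265 and 260.1 TPM, above 93.5% of expressed genes. The log2 ratio between the libraries was -0.04 for Srebf1 and 0.07 for Srebf2. The ratio of Srebf1 to Srebf2 was 1.56 and 1.58 in TPM of the whole gene. Counted on protein-coding transcripts alone the order turned, with Srebf1 at 241 and 217 TPM and ratios of 0.909 and 0.833. In estimated counts of the whole genes, which are not divided by length, the ratios were 0.798 and 0.742. Which of the factors led thus depended on the transcripts counted and on the measure. Scap had 118 and 97.2 TPM, a mean of 107.5 ± 14.5 TPM (SD, n = 2). Insig2, one of the retention proteins, had 12.6 and 7.09 TPM from 316 and 161 counts.

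Insig1 (ENSMUSG00000045294, chromosome 5, 28071363 to 28078662, plus strand) had 0 counts in both libraries. The upper limit taken for 0 counts was 3 counts, for this gene 0.0196 and 0.0262 TPM, which covers counting error only. Whether alignment or annotation kept reads from being assigned to Insig1 was not tested, and the folds that follow hold only for the counts as deposited. Against that limit Insig2 was at least 105 and 53.7 times higher in counts in replicates 1 and 2. In TPM as estimated it was at least 644-fold higher in replicate 1 and at least 271-fold higher in replicate 2. TPM divides by length, and most Insig2 TPM was assigned to a model of 478 bases, against 2697 bases for the Insig1 transcript. The TPM folds therefore depend on that assignment. Only 3.46% of the 31-base words of Insig1 transcripts occurred in another gene, and the processed pseudogene that shares most of them, Gm37784, also had 0 counts. Its protein-coding neighbours within 300000 bases were of both kinds. Paxip1 on one side had 33.0 and 33.8 TPM and Rbm33 on the other had 46.4 and 44.4 TPM, whereas Htr5a, En2 and Cnpy1, which lie nearer, had 0 counts.

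Start sites were examined for Srebf1, since its SREBP-1a and SREBP-1c forms begin at separate first exons. RefSeq lists 3 starts, at 60222581, 60220627 and 60210471 on chromosome 11, and the gene is read toward lower coordinates. The annotated model at the first, Srebf1-204, is a short non-coding one. The next, 1954 bases downstream, is the start of the coding transcript Srebf1-201, which is the SREBP-1a form, and the last, 12110 bases downstream, is the start of the SREBP-1c form, Srebf1-207. Srebf1-201 held 16.1% of the gene's TPM in replicate 1 and 11.5% in replicate 2, and Srebf1-207 held 7.62% and 8.29%. In TPM the SREBP-1a transcript was thus 2.12 and 1.38 times above the SREBP-1c transcript, and in estimated counts 2.90 and 1.89 times. However, the model Srebf1-207 ends at 60200463, short of the 60199089 that Srebf1-201 reaches. Reads beyond that end could not be assigned to Srebf1-207 whichever start they came from, so these ratios can overstate SREBP-1a. The largest coding share, 34.7% and 33.0% of TPM and 54.6% and 56.8% of counts, was assigned to Srebf1-203, which begins at 60207188 and at none of the 3 RefSeq starts. A non-coding model at the SREBP-1c start, Srebf1-208, took another 18.6% and 28.4% of TPM. With it the SREBP-1c start held 26.2% and 36.6% of TPM, above the SREBP-1a start, but 13.2% and 17.8% of counts, below the 26.9% and 20.9% of the SREBP-1a start. Reads from exons common to these models are divided between them by estimation, so the shares are less certain than the gene's total.

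Sequences before the start sites are shown for Hmgcs1 as an SREBP target with a canonical site, for Mvk as the member with the most CCAAT boxes, for the undetected Insig1, and for both coding starts of Srebf1. The search covered the 250 bases before each RefSeq start, and each sequence gives the longest part of them without an annotated exon, 5′ to 3′ on the gene's strand, from RefSeq on build GRCm38.p6. Capitals mark CCAAT boxes (CCAAT, or ATTGG on the other strand) and the sterol regulatory element TCACNCCAC. The Hmgcs1 sequence is chr13:119690101-119690350, Mvk chr5:114444061-114444268 and Insig1 chr5:28071162-28071362, all on the plus strand. The Srebf1 sequences are chr11:60220628-60220877 for SREBP-1a and chr11:60210472-60210721 for SREBP-1c, on the minus strand.
Hmgcs1: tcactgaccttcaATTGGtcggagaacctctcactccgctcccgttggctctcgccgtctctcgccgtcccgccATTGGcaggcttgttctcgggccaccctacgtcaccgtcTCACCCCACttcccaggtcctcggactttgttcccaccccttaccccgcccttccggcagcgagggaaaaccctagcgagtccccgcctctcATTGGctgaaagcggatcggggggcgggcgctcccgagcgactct
Mvk: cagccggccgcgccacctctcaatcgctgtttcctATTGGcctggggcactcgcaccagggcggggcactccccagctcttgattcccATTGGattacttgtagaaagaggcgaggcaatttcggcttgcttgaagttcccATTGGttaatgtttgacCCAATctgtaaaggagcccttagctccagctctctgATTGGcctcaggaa
Insig1: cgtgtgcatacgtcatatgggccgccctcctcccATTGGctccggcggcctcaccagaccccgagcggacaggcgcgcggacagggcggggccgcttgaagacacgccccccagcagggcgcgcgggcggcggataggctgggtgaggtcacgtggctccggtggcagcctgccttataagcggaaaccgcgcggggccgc
Srebf1 start of SREBP-1a: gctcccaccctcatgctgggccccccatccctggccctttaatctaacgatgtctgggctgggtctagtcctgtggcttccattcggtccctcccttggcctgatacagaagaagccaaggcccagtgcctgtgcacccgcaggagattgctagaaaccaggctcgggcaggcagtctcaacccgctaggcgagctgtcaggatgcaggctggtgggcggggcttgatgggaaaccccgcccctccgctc
Srebf1 start of SREBP-1c: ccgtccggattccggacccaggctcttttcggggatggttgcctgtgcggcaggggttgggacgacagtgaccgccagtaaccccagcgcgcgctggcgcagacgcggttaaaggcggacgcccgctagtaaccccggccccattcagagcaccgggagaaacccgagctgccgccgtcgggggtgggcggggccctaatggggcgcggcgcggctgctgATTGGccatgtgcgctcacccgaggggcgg

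RefSeq windows were found for 24 of the 29 genes, 32 windows in all. A CCAAT box stood in 22 of these windows (68.8%) and in at least 1 window of 21 genes, against 33.8% of all 32851 windows and 36.6% of the 8528 windows of expressed genes. The GC box GGGCGG stood in 24 of the 32 windows, against 32.7% of all windows and 61.5% of windows of expressed genes. TCACNCCAC, searched like the others on both strands, matched once, in Hmgcs1 as TCACCCCAC 137 bases before the start, against 1.05% of all windows and 0.973% of windows of expressed genes. Only this exact spelling was searched, so sites of other spelling are not covered. The E-box CACGTG stood in 6 windows (18.8%), among them those of Insig1 and Abca1, against 6.02% of all windows and 9.11% of windows of expressed genes. AGATAA, a form of the GATA motif, stood in the window of Npc2 alone, 1 of 32, against 9.99% of all windows and 5.53% of windows of expressed genes. The window of Insig1, which had no counts, held a CCAAT box, 3 GC boxes and an E-box. These matches describe letters and not binding, and the difference in shares was not tested.

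**Figure D2:**
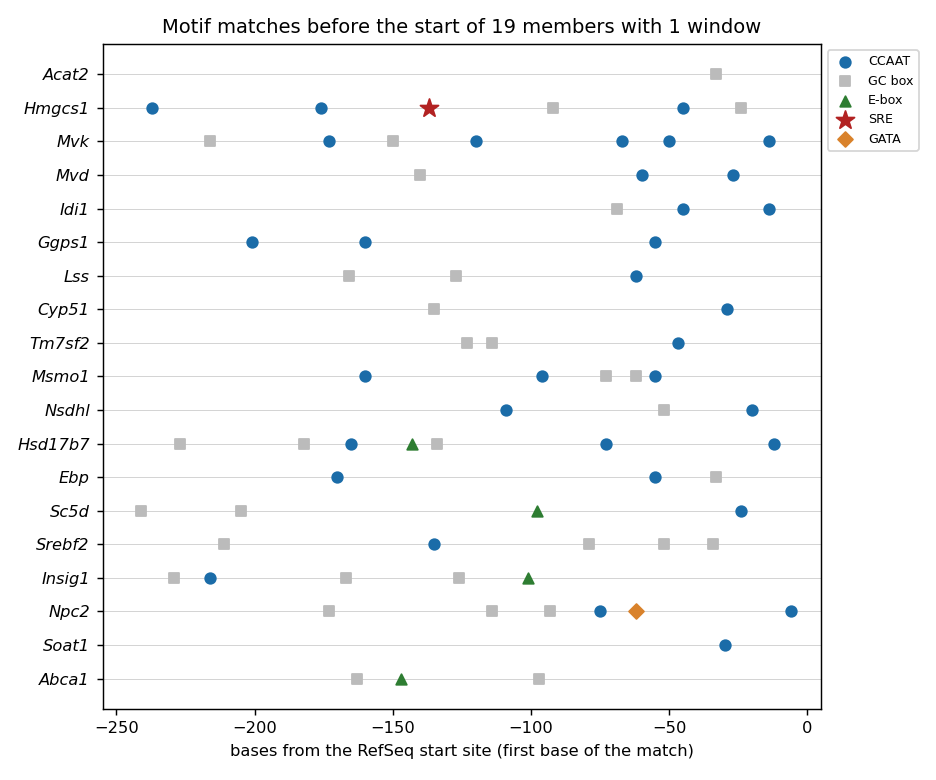
Matches to 5 motifs in the 250 bases before the start of the 19 genes with a single RefSeq window, by distance from the start in bases. Blue points, the CCAAT boxes, occur in 17 of the 19 genes and up to 5 times in Mvk, and the red star marks the single TCACNCCAC match, 137 bases before the start of Hmgcs1.

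Genes of sterol trafficking were uneven. Stard4, whose protein carries sterol between membranes, had 61.2 and 37.2 TPM for the gene as a whole but 5.44 and 3.72 TPM on protein-coding transcripts. The lysosomal export genes differed from each other, with Npc1 at 1.54 and 1.31 TPM and Npc2 at 13.4 and 30.9 TPM. Npc2 exceeded Npc1 8.69 and 23.6 times, and both of its values lay above both of Npc1. Soat1, encoding the enzyme that esterifies cholesterol for storage, had 0 counts in replicate 1 and 3 counts in replicate 2. For Soat1 3 counts correspond to 0.0268 and 0.0326 TPM. The efflux pump gene Abca1 had 0.73 and 1.17 TPM from 444 and 532 counts over a long transcript. In bulk RNA, fewer cells that express a gene and less RNA per cell cannot be told apart.

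Between the 2 libraries, most members matched and a few stood apart, all in one direction. Among the 27 genes averaging 10 counts or more, 21 differed by less than 1.5-fold in counts scaled by TMM, a method that sets the libraries to a common scale. Of the 27 genes 5 (18.5%) were at least 2-fold higher in replicate 2, against 7.65% of all 10863 genes that pass this minimum. In the other direction 0 of 27 were, against 1.91%. Since each side of the ratio is 1 library, this has no replicate check. The 5 genes were Hsd17b7 (log2 ratio 2.03, from 179 and 512 counts), Pmvk (1.54, from 616 and 1255 counts), Fdps (1.36, from 692 and 1241 counts), Dhcr7 (1.34, from 1203 and 2129 counts) and Npc2 (1.31, from 2500 and 4332 counts). They had more counts in the shallower library. They were spread over the pathway, since Mvk and Mvd on either side of Pmvk had ratios of 0.12 and 0.22 and Fdft1 after Fdps had -0.10. By direction alone 11 of 27 were higher in replicate 2 and 16 in replicate 1, with 49.2% of all genes higher in replicate 2. The most negative ratios were those of Stard4 (-0.56), Nsdhl (-0.52), Msmo1 (-0.50) and Insig2 (-0.46). Across the 29 genes log2(TPM + 1) of the libraries correlated with a Pearson r of 0.955 and a Spearman rho of 0.924, a description across genes that share both libraries.

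**Figure D3:**
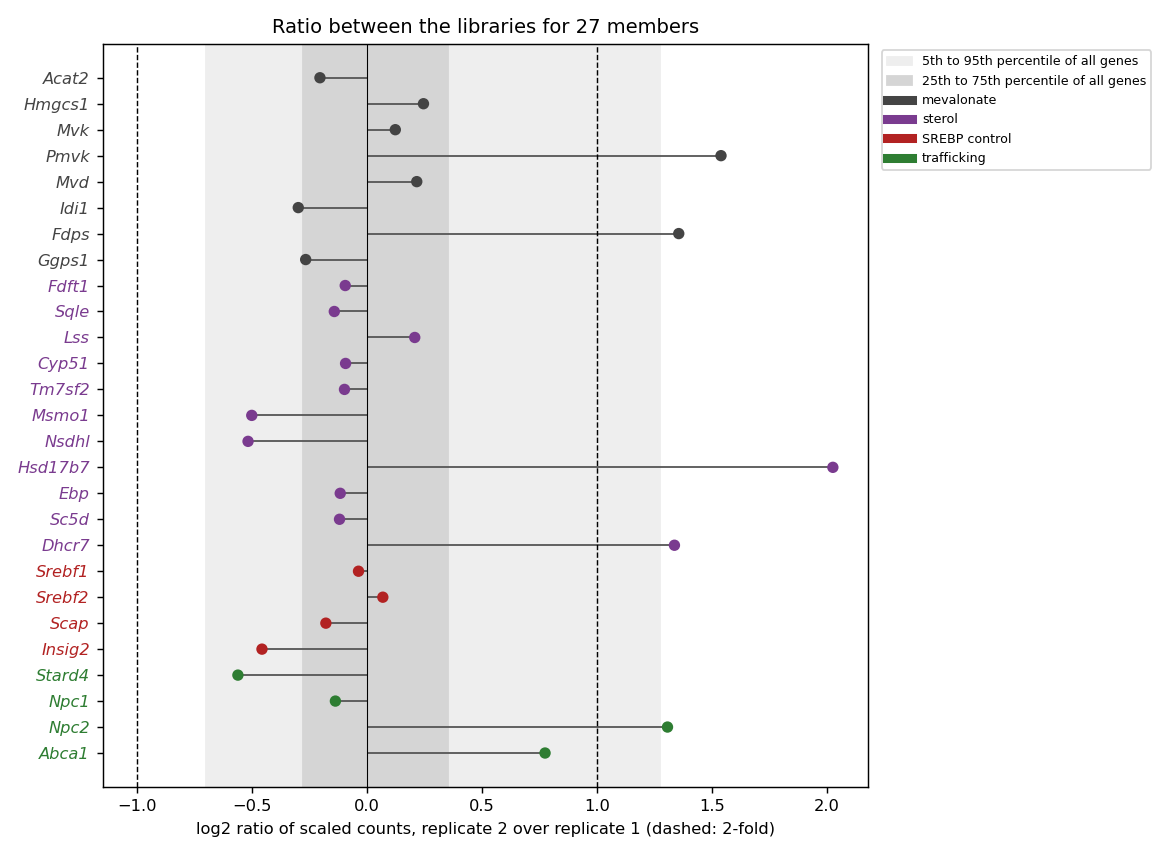
Scaled counts of replicate 2 over replicate 1, as a log2 ratio, for the 27 genes averaging 10 counts or more, coloured by role, with grey bands for the middle 50% and the 5th to 95th percentile of all 10863 genes. Pmvk, Fdps, Hsd17b7, Dhcr7 and Npc2 lie to the right of the 2-fold line and no gene lies to the left of it.

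Several gene totals rested on short or non-coding transcript models. Of the 27 genes 19 had over 95% of their TPM on protein-coding transcripts in both libraries, and 5 had under 75% in both, namely Srebf1, Lss, Tm7sf2, Ebp and Stard4. Stard4-204, a retained-intron model, held 91.1% and 90.0% of the gene's TPM. Lss-202, a non-coding model of 352 bases, held 53.4% and 66.3% of TPM from only 200 and 267 of 3913 and 3163 counts, and on coding transcripts Lss stood at 12.2 and 12.9 TPM. Tm7sf2 kept 68.7% and 74.7% on coding transcripts and Ebp 40.1% and 62.0%. Insig2 was on coding transcripts in full, but a short coding model of 478 bases took 80.0% and 66.7% of TPM and the longest model, Insig2-201, 4.38% and 7.93%.

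Transcript shares also differed between the libraries, both in Hsd17b7, Dhcr7 and Pmvk, which stood apart in counts, and in members that did not. Among the latter, Ebp-201 held 40.1% and 62.1% of TPM, Acat2-203 11.1% and 23.9%, and Lss-202 53.4% and 66.3%. In Hsd17b7 the non-coding model Hsd17b7-204 held 21.8% of TPM in replicate 1 and 73.2% in replicate 2, and on coding transcripts the gene stood at 0.71 and 2.51 TPM. In Dhcr7 the short coding model Dhcr7-203 held 55.8% in replicate 1 and 5.85% in replicate 2, while the decay-prone model Dhcr7-210 held 0% and 25.6%. Dhcr7 stood at 18.6 and 30.4 TPM as a whole and at 18.5 and 22.6 TPM on coding transcripts. In scaled counts of coding transcripts alone, an alternative chosen after seeing the data, replicate 2 was 2.29-fold higher for Dhcr7 and 2.57-fold higher for Hsd17b7, beside 2.53-fold and 4.08-fold for the whole genes. In Pmvk the coding model Pmvk-202 held 0% and 13.8%. Fdps and Npc2 have 1 transcript each in the tables.

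**Figure D4:**
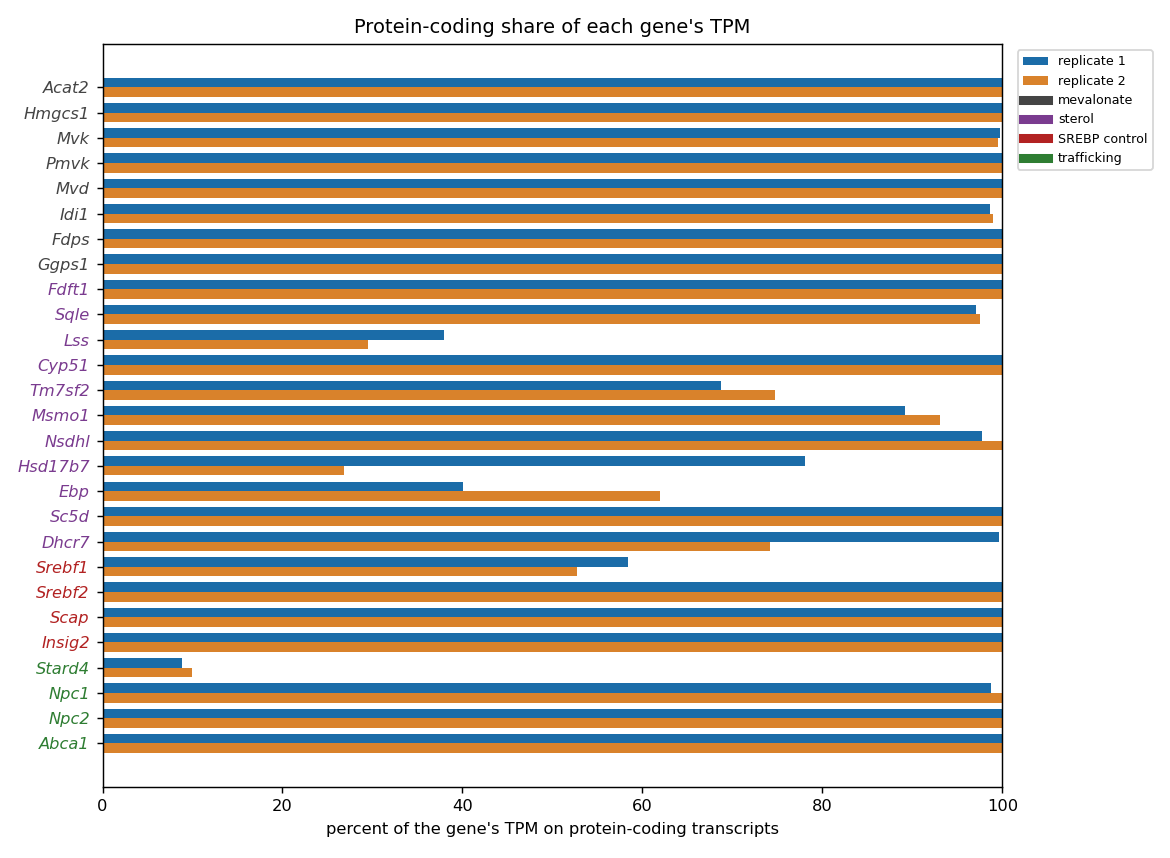
Percent of each gene's TPM on transcripts annotated as protein-coding, in replicate 1 (blue) and replicate 2 (orange), for the genes with at least 10 counts in each library. Stard4 lies near 9 to 10%, Lss below 40%, and Hsd17b7 at 78.0% in replicate 1 and 26.8% in replicate 2.

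Shared sequence or overlapping exons concerned 12 of the 29 members. At least 20% of the 31-base words were found in another gene for 4 of them. Acat2 shared 43.7%, with Acat3, a close copy that had 6.92 and 0 counts. Fdft1 shared 31.9%, mainly with Ctsb, whose exons cover 774 bases of it on the opposite strand and which had 13.4 and 9.65 TPM. Fdps shared 27.9%, mostly with Gm43738, a gene on the same strand that covers 1124 bases of its exons and is not among the genes quantified. Idi1 shared 27.1%, mainly with the pseudogene Gm13502 at 65.3 and 15.2 counts. Exons of Hmgcs1 overlap Gm48342 by 557 bases and those of Idi1 overlap Gm48574 by 323 bases, both on the opposite strand. Neither Gm48342 nor Gm48574 is among the genes quantified. Exons of Scap and Lss overlap genes listed at 0 by 985 and 381 bases, also on the opposite strand. Exons of Ggps1, Cyp51, Srebf1 and Npc1 also overlap an expressed gene on the opposite strand, by 257, 166, 109 and 511 bases, and Tm7sf2 overlaps Vps51 on its own strand by 532 bases. Use of strand in counting is not stated in the sources used here, so the levels of these genes carry that uncertainty.

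Levels of the members moved with GC content. Across the 29 genes the mean TPM and the GC percent of the longest transcript had a Spearman correlation of 0.622, beside 0.323 across 8376 expressed genes, which share the same libraries and base composition effects. The sets are unlike, since the 29 genes include members below 1 TPM, such as Insig1 and Soat1, and the 8376 do not. Srebf1, Srebf2, Scap, Mvd and Mvk, the 5 highest members, had 56.3 to 59.1% GC, where the median level of expressed genes was 43.9 to 51.0 TPM. Expressed genes were placed in 10 classes by GC content, with limits that divide all protein-coding genes evenly, so the classes held from 348 to 998 expressed genes. Within its class Srebf1 still lay above 90.7% and Srebf2 above 85.2%. Stard4 lay above 82.5% of genes of its GC class as a whole, but its 4.58 TPM on coding transcripts were below the class median of 10.7 TPM. Sqle lay above 80.9%, Idi1 above 69.7% and Hmgcs1 above 65.3%, although Idi1 and Hmgcs1 were near the middle of all expressed genes. Mvk, which was above Hmgcs1 in TPM, ranked like it within its own class, also above 65.3%. Sc5d lay above 6.26% and Npc1 above 2.54% of the genes of their GC classes. No expressed gene of its class lay below Ggps1, but Ggps1 missed the minimum of 1 TPM that defines expressed genes. Its rank was therefore nearly set by that minimum. Of the 24 detected members 13 lay above the median of their GC class. The part of GC content in these levels was not tested.

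**Figure D5:**
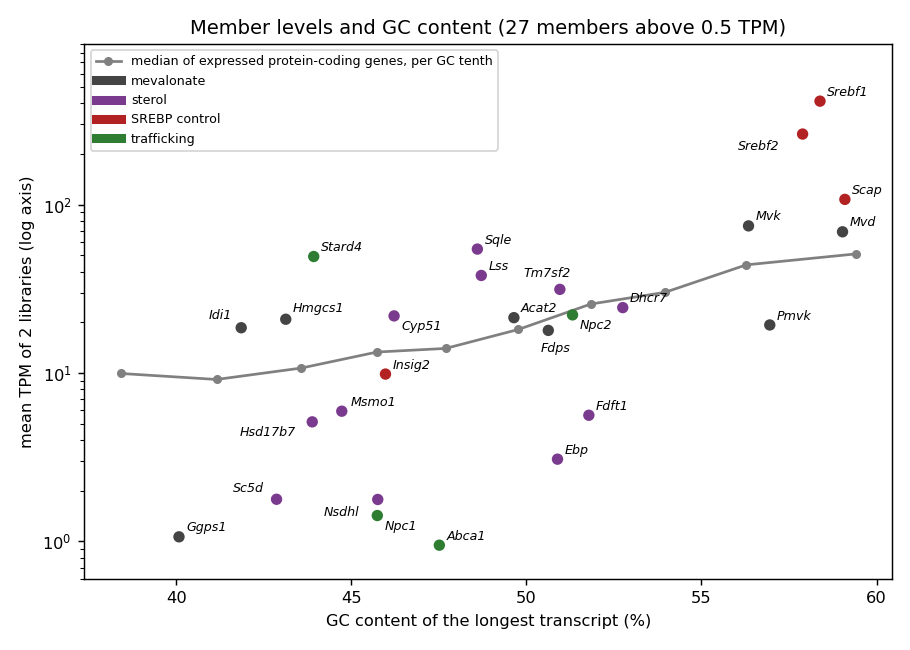
Mean TPM over both libraries (log axis) against the GC percent of the longest transcript for the 27 members above 0.5 TPM, coloured by role, with the grey line giving the median of expressed protein-coding genes in each of 10 GC classes. The line runs from 9.94 to 51.0 TPM, Srebf1 and Srebf2 lie far above its right end, and Ggps1, Nsdhl, Sc5d, Npc1 and Abca1 lie well below it.

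Other genes around the pathway place these levels. Among 18 genes of SREBP processing and sterol-regulated degradation 16 reached 1 TPM in each library, and the median was 12.8 TPM. They were led by the coat protein genes Sec24b at 98.7 and Sec24c at 49.4 TPM and the ubiquitin ligase gene Syvn1 at 96.5 TPM on average, with Trim13 at 0.125 and Sec24d at 0. Of 9 partners of sterol enzymes all 9 were detected, with a median of 71.7 TPM. Por, the reductase that feeds electrons to CYP51 and squalene epoxidase, had 217 and 187 TPM, Cyb5r3 145 and 203 TPM, and Cyb5a 64.4 and 85.6 TPM, while Tmem97 at 33.6 and Erg28 at 5.11 TPM on average were the lowest. Of 15 genes of the isoprenoid branches 13 were detected, with a median of 19.1 TPM, from Coq2 at 61.7, Fnta at 36.6 and Icmt at 30.2 TPM on average down to Rabggtb at 1.63 and 0.48 and Pggt1b at 1.08 and 0.94 TPM. Rabggtb and Pggt1b encode beta subunits of the geranylgeranyl transferases, whose alpha subunit genes were higher, Rabggta at 14.8 and 23.5 TPM and Fnta at 43.9 and 29.3 TPM.

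Fatty acid synthesis genes of the SREBP-1 programme numbered 10 detected of 13, with a median of 26.5 TPM. Fasn, the fatty acid synthase gene, had 398 and 730.1 TPM, the desaturase gene Fads2 154 and 265 TPM, and Fads1 133 and 118 TPM, whereas Thrsp and Pnpla3 had 0 counts. Of the 11 with a mean of at least 10 counts 8 were higher in replicate 2, against 49.2% of all genes, and 2 of them at least 2-fold, against 7.65%, Acly (log2 ratio 2.08) and Scd2 (1.22), which were chosen for naming after their values were seen. Of 19 genes of sterol uptake, efflux and lipid transfer 10 were detected, with a median of 4.44 TPM. The liver X receptor gene Nr1h2 had 306 TPM, its partner Rxrb 237 TPM and the sterol transporter gene Gramd1a 91.0 TPM on average. Vldlr, Abcg1 and the lysosomal lipase gene Lipa had 0 counts in both libraries.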

How the data were processed

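Each of the 2 libraries came with a gene and a transcript table. Per the file headers, the expected counts and posterior mean counts are the authors' estimated counts and can hold fractions of a read. TPM and FPKM were deposited by the authors as length-scaled abundances, and the percent of a gene's TPM on each transcript was likewise deposited. The files use mm10 and GENCODE M4, per the readme files, and the sources used here name neither the aligner nor the quantifier. Names, transcript classes and coordinates came from GENCODE M21 on that build, matched on identifiers without their version, and 42462 of 43346 genes matched. Rows without a name held 0.277% and 0.291% of counts.

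Levels are TPM per library, with mean and SD. Expected counts were rounded, scaled with TMM in edgeR 4.0.16 (R 4.3.3) over genes averaging 10 counts or more, and compared as log2 ratios with a pseudocount of 0.5, a step tested on simulated data. With 1 group of 2 no model was fitted. Words of 31 bases were compared across all M21 transcripts on both strands. Alternatives were other minimums, FPKM, posterior means, library totals, DESeq2 1.42.0 size factors, and each library alone. Members, lists and comparisons were chosen with earlier results of these data known. Named genes are all members, and of each neighbouring list the 3 highest and 2 lowest, with ties and exceptions stated.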

Additional observations from a re-analysis of the deposited data

How the results depend on the processing

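The number of detected members, 24, was between 19 and 27 under the other minimums, with FPKM, posterior mean TPM and coding transcripts, and was 25 or 26 in a single library. The median member level of 19.3 TPM was between 13.4 and 20.4 TPM in the single libraries, with replicate 1 the lower. The 5 members at least 2-fold apart numbered between 4 and 6 under 8 other scalings, minimums and thresholds, and, in alternatives added after seeing the data, 4 without members that share sequence, 4 in TPM of coding transcripts, as in TPM of whole genes, and 5 in scaled counts of coding transcripts. Srebf2 over Srebf1, 0.638 in TPM of whole genes, was 1.15 on protein-coding transcripts alone, an alternative added after seeing the data, with 58.4% and 52.8% of Srebf1 TPM and 100% of Srebf2 TPM on such transcripts. The share of Srebf1-201, 13.8% of TPM on average, was 23.9% as a share of expected counts, which are not divided by length. The limit on Insig2 over Insig1 was between 271 and 644 in TPM in the single libraries, but 53.7 and 105 in counts, which are not divided by length. The number of members higher in replicate 2, 11 in the main setting, was 10 or 11 under other scalings, in TPM and with posterior mean counts. With posterior means, the median level, ratios and shares examined kept within the spread between the libraries, as did the median and ratios with FPKM. A ratio within a library is nearly the same in FPKM as in TPM by construction. For ratios and shares each single library lies within that spread of their mean, so leaving 1 out was no check. Taken from counts, most further transcript shares moved beyond it. The share of Hsd17b7-204, 47.5% on average and 22.1% of counts, stayed within it because its libraries differed widely. Levels of single genes were not compared in this way. No paired analysis was possible because the libraries form 1 group, and ratios between the libraries cannot be computed with one left out. Insig1 and Soat1, at or below 3 counts, are limited by depth, and for Insig1 alignment and annotation were not tested either. Elsewhere the limits are the spread between 2 libraries and the shared sequence, overlapping exons, transcript models and GC content described above.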
